A study of Caenorhabditis elegans with 2 samples.

Results

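Small nucleolar RNAs (snoRNAs) guide the chemical modification of ribosomal and other RNAs. Those with boxes C and D direct 2′-O-methylation, and those with an H box and an ACA tail direct the change of uridine to pseudouridine. Many snoRNA genes lie in introns of host genes and are released from the host transcript, and others stand outside a host and are transcribed on their own. RNA polymerase III genes such as those for tRNAs carry internal promoter elements, the A box and the B box, which transcription factor TFIIIC binds. In the yeast Saccharomyces cerevisiae, the snoRNA gene SNR52 has A and B boxes in its leader, upstream of the mature RNA.

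The genes described here are the snoRNA genes of Caenorhabditis elegans that are not wholly inside a protein-coding gene on the same strand. Of 346 nuclear snoRNA genes in the Ensembl annotation of WBcel235, 163 met this rule and are called members, and the other 183 are called hosted. No measured value entered the rule. Among the members, 124 were intergenic, 27 lay antisense inside an intron, 6 lay antisense and touched an exon, 5 partly overlapped a protein-coding gene on the other strand and 1 partly overlapped one on the same strand. In addition, 7 lay inside a non-coding gene of the same strand. Member length ranged from 62 to 344 bp with a median of 134 bp.

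The assay was ChIP-seq of FLH-1, a protein with a FLYWCH zinc finger, in 2 biological replicates of 1 group. The animals were embryos of mixed stage and pooled sex, labelled with an age of 2 hours and obtained by egg bleaching. They came from strain OP702, which has the unc-119(tm4063) mutation and the transgene wgIs702, holding flh-1 fused to TY1, EGFP and 3xFLAG tags with a rescuing unc-119(+). Whole embryos were used, so no cell type is resolved, and the protein precipitated with an anti-GFP antibody was the tagged transgene product. An untagged strain or a mock precipitation was not analysed here. There was no second condition, so the results describe positions and ranks within this group, and no test between groups was possible.

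Each relaxed peak list (replicate 1, replicate 2 and their pooled reads) held 30000 entries, and the optimal set held 371 peaks, 364 of them nuclear. A gene was scored by the strongest entry whose summit lay within 100 bp of it, and a gene with an optimal summit there is said to have a peak. The signal value is the authors' own score for a peak and is comparable within a list only, so replicates are set side by side by rank, with 1 as the strongest. An entry of a relaxed list is a candidate position and not a called peak. The lists hold no read counts, so depth is unknown.

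The sequence that carries the main pattern lies just upstream of the members with a peak. The 100 bases before the annotated 5′ end are shown for 8 of the 11 members with a peak that had an exact A box followed by an exact B box, in order of signal value. They were read from the RefSeq assembly WBcel235 (ce11), 5′ to 3′ on the gene's strand, and capitals mark the A box and B box matches.
W03C9.9: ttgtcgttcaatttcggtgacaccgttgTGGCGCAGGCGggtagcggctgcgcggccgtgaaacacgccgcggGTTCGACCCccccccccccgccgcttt
T03F7.8: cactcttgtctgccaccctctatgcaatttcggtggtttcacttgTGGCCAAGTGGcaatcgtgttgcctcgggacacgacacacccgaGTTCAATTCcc
C04G6.12: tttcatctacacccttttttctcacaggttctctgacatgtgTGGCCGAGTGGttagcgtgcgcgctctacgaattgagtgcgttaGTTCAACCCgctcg
C41C4.11: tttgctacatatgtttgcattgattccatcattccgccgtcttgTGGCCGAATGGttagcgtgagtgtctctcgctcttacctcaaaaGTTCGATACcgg
F32E10.10: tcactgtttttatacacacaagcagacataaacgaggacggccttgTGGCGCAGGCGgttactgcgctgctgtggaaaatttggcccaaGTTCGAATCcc
Y75B12B.12: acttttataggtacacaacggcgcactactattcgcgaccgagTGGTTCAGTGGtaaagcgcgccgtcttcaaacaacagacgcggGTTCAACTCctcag
T10B9.11: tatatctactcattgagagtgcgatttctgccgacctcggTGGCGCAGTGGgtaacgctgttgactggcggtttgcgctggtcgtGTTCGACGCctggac
H04D03.5: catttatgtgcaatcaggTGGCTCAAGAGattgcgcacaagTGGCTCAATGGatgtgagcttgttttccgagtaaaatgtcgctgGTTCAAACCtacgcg

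These windows are chrII:11960798-11960897 (+ strand), chrV:11314158-11314257 (+), chrII:5105232-5105331 (-), chrII:8107271-8107370 (-), chrIV:7574022-7574121 (+), chrV:15191094-15191193 (-), chrII:9774835-9774934 (-) and chrIII:10432243-10432342 (+), in the same order. The A box is the textbook consensus of 11 positions, of which 7 are set to 1 or 2 bases. The B box is the textbook consensus of 9 positions, met by GTTCAANNC or GTTCGANNC and by GATCAANNC or GATCGANNC. Both were searched after the upstream sequences of the members with a peak had been seen. As a check of the letters used, 592 of 612 annotated nuclear tRNA genes held the A box, 602 held the B box and 583 (95.3%) held both in order.

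A peak was found at 27 of the 163 members (16.6%, exact 95% binomial interval 11.2 to 23.2%). The share over all 46890 nuclear genes by the same rule was 1.18%. It was 2.31% over the 7604 non-coding genes and pseudogenes of 62 to 344 bp that are neither snoRNA nor tRNA genes. Hosted snoRNA genes had a peak in 21 of 183 cases (11.5%, interval 7.25 to 17.0%), so the intervals of the 2 classes overlapped. These intervals treat genes as independent and cover counting error only.

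Entries of the relaxed lists were spread more evenly over the genes. In the pooled list 59 of 163 members (36.2%) had an entry within 100 bp, against 28.4% of all nuclear genes and 53 of 183 hosted snoRNA genes (29.0%). The list of replicate 1 scored 60 members and that of replicate 2 scored 61. No list held an entry at 88 members (54.0%), and 104 had none in the pooled list. Among the 136 members without a peak, 32 had a pooled entry. The 27 members with a peak had a median pooled rank of 60, with a range of 4 to 309. The 32 scored members without a peak had a median rank of 6070, with a range of 518 to 26179. The optimal set was made from the top of the pooled list, so the order of these ranks is no separate result.

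The strongest 4 members formed the top of the class. W03C9.9, an intergenic gene of 62 bp at chrII:11960898-11960959, had a signal value of 695 in the optimal set, 456 in replicate 1 and 243 in replicate 2, and ranked at 5 in replicate 1 and 3 in replicate 2. T03F7.8, of 75 bp, lies at chrV:11314258-11314332 antisense inside an intron of cutl-18, a cuticlin-like gene. Its signal value was 528 in the optimal set, 363 in replicate 1 and 166 in replicate 2, at ranks of 8 and 10. T06C12.16, intergenic and 72 bp long at chrV:15873855-15873926, had a signal value of 498 and ranked at 10 and 8. ZK265.10, a gene of 62 bp on chromosome I, had a signal value of 487 and ranked at 9 and 13. All 4 thus stood among the first 13 entries of each replicate list, which also rank entries on mitochondrial DNA.

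The next members by signal value came from both intergenic and antisense positions. T02E1.9, 71 bp long, partly overlaps spe-12 on the other strand and had a signal value of 346, with ranks of 22 and 14. B0334.12, 70 bp long, lies antisense inside an intron of the potassium channel gene twk-5 and had a signal value of 333, with ranks of 19 and 17. The 10 strongest nuclear peaks included 5 at members, of which T02E1.9 was the last, and B0334.12 ranked at 17 in the pooled list. Of all 364 nuclear peaks, 27 were at members. Hosted snoRNA genes also had peaks before T02E1.9 (pooled rank 15), at pooled ranks of 5, 11 and 13. C04G6.12, of 75 bp, lies antisense inside an intron of mpk-2, a gene for a MAP kinase, and had a signal value of 287, with ranks of 20 and 49. H09I01.2 and C46C2.8, intergenic genes of 72 and 73 bp on chromosome IV, had signal values of 282 and 280. Their ranks were 35 and 23 for H09I01.2, and 25 and 54 for C46C2.8.

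The list of 12 strongest members ended with C27H5.9, C41C4.11 and F32E10.10. C27H5.9, of 69 bp, lies antisense inside an intron of pdl-1, and its signal value was 269, with ranks of 41 and 25. C41C4.11, an intergenic gene of 75 bp, had a signal value of 235.0, with ranks of 42 and 53. F32E10.10, an intergenic gene of 70 bp, had a signal value of 223, with ranks of 55 and 63. Both replicates placed each of the 12 sites within their first 63 entries. The 12 genes were 62 to 75 bp long.

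The other 15 members with a peak had signal values from 221 down to 98.9. In falling order they were ZK643.9, Y23H5B.10, ZK484.9, T19B4.8, T27A3.9, Y75B12B.12, Y53F4B.48, W01C9.6, T04A8.17, T10B9.11, F30H5.4, K02C4.8, F12F6.11, Y39G10AR.24 and H04D03.5. The median signal value of the 27 was 217, against 219 for the 21 hosted genes and 125 for the 364 nuclear peaks. The hosted snoRNA genes with the highest signal values were C51F7.3 and C51F7.4, which share a summit in frm-7 (653), and ZK994.7 in pxn-1 (448). Signal values at hosted genes with a peak ran from 93.2 to 653, so the ranges of both classes overlapped over nearly their whole length.

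Most members with a peak ranked high in both replicates. Of the 27 members with a peak, 26 had an entry in both replicates and 23 were among the 371 strongest entries of both. No member without a peak was, so the share over all members was 14.1%, against 0.776% of all nuclear genes and 15 of 183 hosted snoRNA genes (8.20%). The first 100 entries of both replicates held 15 of the 27. Over the 46 members scored in both replicates, Pearson's r of the log10 ranks was 0.911 and Spearman's rho 0.913. Without the 2 members farthest from the median rank of replicate 1, r was 0.912. Within the 26 members with a peak, r was 0.789 and rho 0.880, and within the 20 without one, 0.465 and 0.383, so the values over all 46 also hold the separation of both sets. These values describe loci that share the same 2 libraries, and the optimal set had been chosen on pooled signal.

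**Figure D1:**
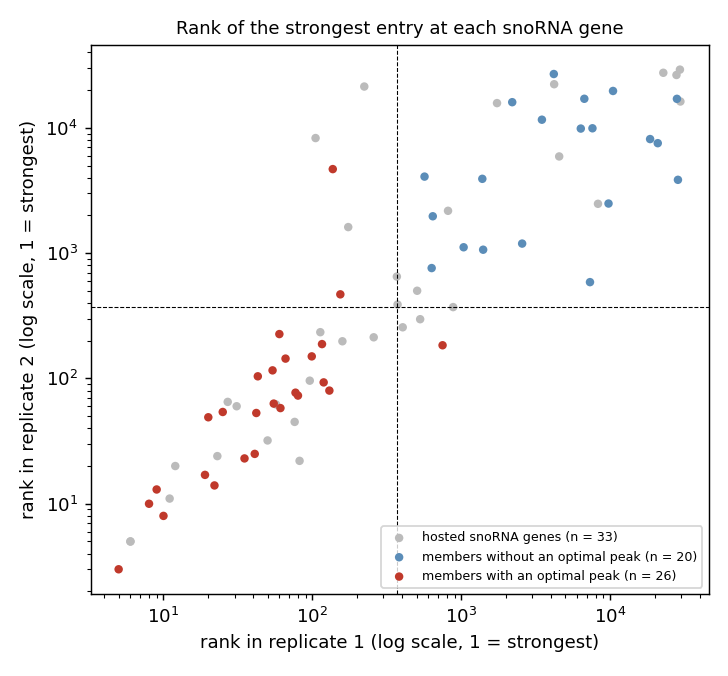
Rank of the strongest entry within 100 bp of each snoRNA gene in replicate 1 (x axis) and replicate 2 (y axis), both on log scales. Points are genes scored in both lists and dashed lines mark rank 371. Of the 26 members with a peak, 23 lie in the lower left corner.

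In 4 members with a peak the replicates did not both reach the first 371 entries. K02C4.8 ranked at 137 in replicate 1, while the strongest entry near it in replicate 2 ranked at 4684. The summits of these entries were 81 bp upstream of the 5′ end and 86 bp past it, inside the gene. H04D03.5, antisense inside an intron of smrd-1, ranked at 748 in replicate 1 and 184 in replicate 2. F12F6.11 ranked at 154 and 469. Y39G10AR.24 ranked at 176 in replicate 1 and had no entry in replicate 2. The ratio of both ranks was 34.2 for K02C4.8, 4.07 for H04D03.5 and 3.77 for Y75B12B.12 (ranks of 60 and 226), the 3 largest among the 26, and the better rank was in replicate 1 for 14 of the 26.

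The members closest to a peak without having one were F07A11.15, F59C6.15 and C26C6.13. F07A11.15, 271 bp long and antisense to din-1, had a pooled signal value of 79.3 at rank 518, with ranks of 632 and 760 in the replicates. F59C6.15 had 76.0 at rank 579, with ranks of 1036 and 1114. C26C6.13 had 73.9 at rank 633, with ranks of 566 and 4081. All 3 were below the weakest optimal peak, at 90.3, and were longer than every member with a peak, at 271, 173 and 180 bp against at most 144 bp.

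The summit stood upstream of the annotated gene in 24 of the 27 members with a peak (88.9%, exact interval 70.8 to 97.6%). Inside the gene were the summits of ZK643.9, at 16 bp from the 5′ end, and ZK484.9, on its first base. B0334.12 was the only one with the summit past the 3′ end. The median offset from the 5′ end was -42 bp, where negative values are upstream, and it was -41 bp for the strongest entries of replicate 1 and -46 bp for those of replicate 2. Over the 26 members scored in both replicates, the replicate summits lay a median of 16 bp apart. Among hosted genes with a peak the summit was upstream in 20 of 21, with a median offset of -51 bp. A summit had to lie within 100 bp of the gene to be counted, and no further member had an optimal summit between 101 and 200 bp away.

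Each of the 27 peaks belonged to 1 member, and none of the 27 summits had another tRNA, snoRNA, snRNA, miRNA, piRNA or rRNA gene within 100 bp. The nearest annotated tRNA gene was at least 1109 bp from the summit, with a median of 171243 bp. In 7 cases the summit also lay between 1000 bp upstream and 200 bp downstream of the start of a protein-coding gene. These were ZK265.10 (sre-23, a chemoreceptor gene), T02E1.9 (T02E1.2), C41C4.11 (chst-1 and C41C4.9), Y75B12B.12 (Y75B12B.11), Y53F4B.48 (gst-27, a glutathione S-transferase gene), T10B9.11 (ZK1321.4) and K02C4.8 (K02C4.2). At these 7 sites a position at the snoRNA gene and one at the promoter of the neighbour cannot be told apart from the peak alone. The other 20 summits were in no such window.

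Exact A and B boxes were frequent upstream of the members with a peak. Within the 100 bp upstream on the gene's strand, 15 of 27 had an A box (55.6%), 16 had a B box (59.3%), 11 had an A box followed by a B box (40.7%) and 20 had at least one of them. Among the 136 members without a peak, 10 had an A box (7.35%), 6 had a B box (4.41%) and 2 had both in order (1.47%). The windows upstream of 19973 protein-coding genes held an A box in 1.86%, a B box in 1.37% and both in order in 5 cases (0.0250%). Hosted genes with a peak had the A box in 14 of 21, the B box in 8 and both in order in 7, and hosted genes without one in 10, 9 and 1 of 162.

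**Figure D2:**
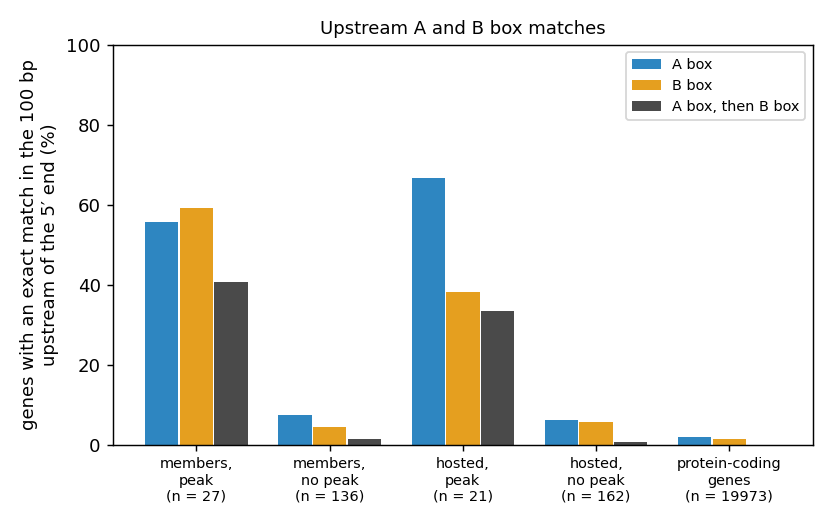
Share of genes with an exact A box, an exact B box, or an A box followed by a B box in the 100 bp upstream of the 5′ end on the gene's strand (y axis, percent), for snoRNA genes with and without a peak and for all protein-coding genes. The A box stood upstream of 55.6% of the members with a peak and 7.35% of those without.

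The positions of the boxes were narrow. The first A box of the 15 members began between 82 and 50 bp upstream of the 5′ end, at a median offset of -58 bp, and the B box nearest to the gene began at a median offset of -14 bp, with a range of -27 to -10 bp. Where both were present in order, the A box start and the B box start were a median of 44 bp apart (11 members, range 39 to 67 bp). In tRNA genes the same distance had a median of 44 bp (583 genes, range 17 to 94 bp). The optimal summit lay a median of 12 bp downstream of the A box start in the 15 members, with a range of -16 to 66 bp. In 142 tRNA genes with a peak and both boxes this median was 14.5 bp, with a range of -93 to 158 bp, so the summits were widely spread. In members without a peak, the 10 A boxes began at offsets from -98 to -26 bp. The B box began at -12 bp in ZC395.12, Y59E1B.14 and C53B7.8 and at -11 bp in T27A8.9, none of which had a peak. It began at -31 bp in Y6B3B.15 and at -83 bp in Y40B1A.6, also without a peak. The B box position of members with a peak was thus shared by most B boxes without one. None of the upstream windows of members overlapped an annotated tRNA gene.

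**Figure D3:**
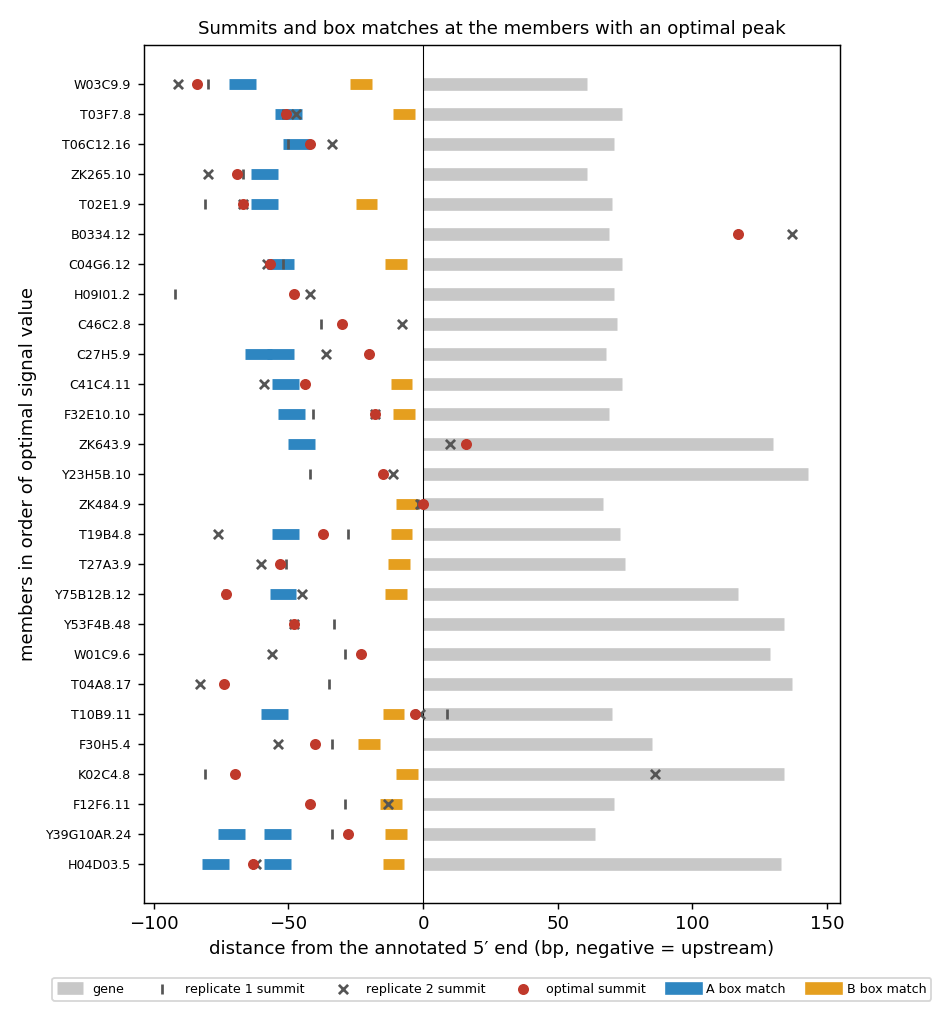
Each row is a member with an optimal peak, in order of signal value, and the x axis is the distance from its annotated 5′ end in bp. Grey bars are the gene, blue and orange bars the exact A and B box matches upstream, red points the optimal summit, ticks and crosses the strongest entries of replicates 1 and 2. Of the 27 red points, 24 lie upstream, at a median of -42 bp, and B0334.12 is the exception past the 3′ end.

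Read from the side of the sequence, 34 members had an exact A or B box upstream, and 20 of them had a peak (58.8%). With neither box, 7 of 129 had one (5.43%). With both boxes in order it was 11 of 13 members, and 7 of 8 hosted genes. Of the 583 tRNA genes with both boxes in order, 142 had a peak by the same rule, so most had none. Signal values did not separate the members with a peak by their boxes: the 20 with an exact box had a median of 214 and the 7 without one 217. Those 7 were B0334.12, H09I01.2, C46C2.8, Y23H5B.10, Y53F4B.48, W01C9.6 and T04A8.17. With 1 mismatch allowed in each box, both boxes in order were found in 21 of the 27 members with a peak, in 14 of the 136 others (10.3%) and in 4.24% of protein-coding windows. The upstream windows also differed in base composition, with a median GC content of 53.0% for members with a peak, 45.0% for the other members, 58.0% for hosted genes with a peak and 40.0% for hosted genes without one, and the part of GC content in the match counts was not tested.

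Boxes without a peak were seen on the X chromosome, where none of the 23 members had a peak, against 27 of the 140 on autosomes. By counting error alone, 0 of 23 allows a share of up to 14.8% (upper exact limit), and the share on autosomes had an interval of 13.1 to 26.8%, so the intervals overlapped. Of the 23, only C53B7.8, K09E9.5 and M163.14 had Ensembl gene identifiers up to WBGene00077461. No member with a later identifier had a peak on any chromosome. The absence on X was not tested among members with like identifiers. The pooled list scored 8 of the 23. Over all nuclear genes, 2.46% of the 6022 on X had a peak by the same rule and 0.993% of the 40868 on autosomes. These shares cover every kind of gene, tRNA genes among them, and were not split by kind. Of the 14 members with an exact box and no peak, 5 were on X. Y59E1B.14 had both boxes in order and a run of T after its 3′ end, yet it had no pooled entry and its only entry was at rank 12597 in replicate 2. The only other member with both boxes and no peak, Y6B3B.15, is 113 bp long, with boxes that began 76 and 31 bp upstream, and it had no entry in any list. An annotated pseudogene overlaps the upstream window of Y59E1B.14 on the same strand. C53B7.8, a gene of 71 bp with a B box, had a pooled entry at rank 2012 (signal value 55.0), and its summit was 67 bp upstream. Their upstream windows, chrX:1891409-1891508 and chrX:6867838-6867937 (both + strand), are shown in the same way to set them beside those of the members with a peak.
Y59E1B.14: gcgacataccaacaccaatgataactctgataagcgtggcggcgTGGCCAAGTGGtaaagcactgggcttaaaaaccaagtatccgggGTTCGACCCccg
C53B7.8: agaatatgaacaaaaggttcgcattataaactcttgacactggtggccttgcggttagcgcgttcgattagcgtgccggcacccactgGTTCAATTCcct

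B0334.12, the member with its summit past the 3′ end, was read on both strands. Its annotated strand had no box in the 100 bp upstream, and its summit lay 117 bp from the annotated 5′ end, past the 3′ end. On the other strand, an exact A box and an exact B box lay 62 and 18 bp before the far end of the gene, 44 bp apart, and the summit was 48 bp before that end. The window past the 3′ end, chrII:11484753-11484852 read on the - strand, and the gene itself, chrII:11484683-11484752 read on the - strand, are shown with the boxes and, in the gene, the box C and box D letters in capitals.
B0334.12, other strand, before the gene: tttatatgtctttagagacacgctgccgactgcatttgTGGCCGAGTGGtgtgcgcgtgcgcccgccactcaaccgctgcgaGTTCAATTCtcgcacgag
B0334.12, other strand, gene: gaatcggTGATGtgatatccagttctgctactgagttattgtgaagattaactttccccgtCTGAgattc

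Read on the - strand this sequence had TGATG among its first 20 bases and CTGA among its last 20, and on the annotated strand it did not. A run of T also followed it on that strand. One other member, K07C10.2, had such ends only on the other strand, and it had no peak. These are matches of letters, and which strand is transcribed was not measured. Read on the - strand, B0334.12 would lie inside twk-5 on the same strand and would be hosted, not a member. All counts use its annotated strand.

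Members with a peak were shorter than the other members taken as a whole. Their median length was 74 bp, with a range of 62 to 144 bp, against 147.5 bp (64 to 344 bp) for the other members. No member with a peak had an Ensembl gene identifier above WBGene00077461, while most of the other members did. Most members without a peak and with identifiers up to that one were also at most 100 bp long, and most had a T run. The length contrast over all members thus lay largely with the later identifiers. Among members without a peak and with the earlier identifiers, exact boxes stood upstream of C17D12.8, C53B7.8, K02C4.7 and K09E9.5 only. No contrast was tested among members with like identifiers. Of the 45 members of up to 100 bp, 19 had a peak (42.2%, exact interval 27.7 to 57.8%), and of the 118 longer ones 8 did (6.78%, interval 2.97 to 12.9%), although a longer gene spans a wider window for a summit. Among hosted genes it was 10 of 50 and 11 of 133, with median lengths of 119 and 129 bp with and without a peak. The limit of 100 bp was chosen after the lengths had been seen, so these shares are a description.

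**Figure D4:**
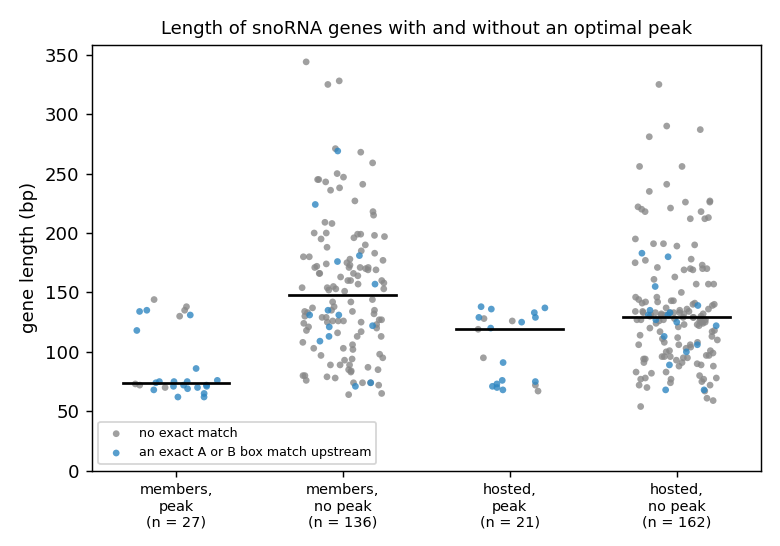
Length in bp (y axis) of each snoRNA gene, for members and hosted genes with and without an optimal peak; black lines are medians, and blue points have an exact A or B box upstream. Members with a peak have a median of 74 bp and the other members 147.5 bp. Most of the other members have gene identifiers above WBGene00077461, where no member has a peak.

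Box C/D RNAs are usually shorter than H/ACA RNAs, so the ends of the genes were read for both kinds of box. By strict ends (TGATGA in the first 20 bases and CTGA in the last 20), 2 of the 27 were C/D, W03C9.9 and F30H5.4. A further 7 had the ACA tail near the 3′ end and 18 fell in neither class. Among the 136 other members the counts were 6 C/D, 21 with the ACA tail and 109 in neither class. Strict C/D ends were thus at 7.41% with a peak and 4.41% without. In the same order, hosted genes had 2, 8 and 11 of 21 with a peak, and 4, 48 and 110 of 162 without. With TGATG or GATGA accepted for box C, a search chosen after the data had been seen, 8 of the 27 had C/D ends (29.6%), against 9 of the 136 other members (6.62%). Among members of up to 100 bp it was 7 of 19 with a peak (36.8%, exact interval 16.3 to 61.6%) and 6 of 26 without (23.1%, interval 8.97 to 43.6%), so at like length the intervals overlapped. Of the 9 members with such ends and no peak, only F37A8.7 had a gene identifier above WBGene00077461. The 6.62% was thus a share mostly of members with later identifiers. Hosted genes had such C/D ends in 4 of 21 with a peak (19.0%) and 11 of 162 without (6.79%). At up to 100 bp, hosted genes had them in 4 of 10 and 9 of 40. Among the 8 longer members with a peak 6 had the ACA tail, against 20 of the 110 longer members without one. Hosted genes showed 8 of 11 and 46 of 122. The sequences of 4 genes with C/D ends are shown with box C and box D letters in capitals.
W03C9.9 gene: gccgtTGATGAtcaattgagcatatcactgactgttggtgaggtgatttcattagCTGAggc
T03F7.8 gene: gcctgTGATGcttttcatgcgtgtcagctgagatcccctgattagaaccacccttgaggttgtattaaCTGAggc
T06C12.16 gene: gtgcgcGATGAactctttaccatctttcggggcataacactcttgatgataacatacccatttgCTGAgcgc
C41C4.11 gene: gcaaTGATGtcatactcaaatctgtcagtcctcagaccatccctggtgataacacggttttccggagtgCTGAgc

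After the 3′ end, a run of 4 T is the usual stop signal of RNA polymerase III. Within 30 bp after the annotated 3′ end, 22 of the 27 members with a peak had such a run (81.5%, exact interval 61.9 to 93.7%), as did 55 of the 136 other members (40.4%, interval 32.1 to 49.2%). Among members of up to 100 bp it was 16 of 19 with a peak (84.2%, interval 60.4 to 96.6%). Without a peak it was 12 of 26 (46.2%, interval 26.6 to 66.6%), so at like length the intervals overlapped. Hosted genes of any length had the run in 19 of 21 and 87 of 162 cases (90.5% and 53.7%), and 49.4% of protein-coding genes had one after their 3′ end. At up to 100 bp, hosted genes had it in 8 of 10 and 25 of 40. The 5 members with a peak and no run were B0334.12, F32E10.10, T04A8.17, F30H5.4 and K02C4.8. This search, too, was chosen after the data had been seen.

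Shorter words, some of them named in earlier results of these data, gave lower counts than the boxes. GTTCGA, which is part of the B box, stood within 100 bp upstream on either strand in 9 of the 27 members with a peak (33.3%), 4 of the 136 others (2.94%) and 2.96% of protein-coding windows. GCGCGC stood in 5 of the 27 (18.5%), 8 of the 136 (5.88%) and 1.09% of protein-coding windows. TTGCAA stood in 2 of the 27 (7.41%), 8 of the 136 (5.88%) and 4.96% of protein-coding windows. TATAA was found in 5 of the 27 (18.5%) and 34 of the 136 (25.0%), against 30.5% of protein-coding windows. GGGCGG was found in 2 of the 27 (7.41%), 8 of the 136 (5.88%) and 3.48% of protein-coding windows. A match is a run of letters and no measured contact.

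Around the summits themselves, 12 of the 27 windows reaching 100 bp to each side held an A box followed by a B box on either strand (44.4%). At the 138 optimal summits near tRNA genes it was 128 (92.8%), at the 179 near neither kind of gene 9 (5.03%), and over all 29993 nuclear pooled entries 1.66%.

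Members with a peak came from most position classes. Of the intergenic members 17 of 124 had one (13.7%, exact interval 8.19 to 21.0%), and of those antisense inside an intron 7 of 27 (25.9%, interval 11.1 to 46.3%), so the intervals overlapped. The 5 partial overlaps on the other strand included 3 with a peak (T02E1.9, T27A3.9 and W01C9.6). None of the 6 members that touch an exon on the other strand and none of the 7 inside a same-strand non-coding gene had one, counts that allow shares of up to 45.9% and 41.0%. An annotated ncRNA gene overlapped the upstream window of 6 of the 27 members with a peak (22.2%) and 13 of the 136 others (9.56%), and of 8 of 21 hosted genes with a peak and 8 of 162 without. The 6 ncRNA genes lay on the same strand at ZK484.9 and T27A3.9 and on the other strand at T03F7.8, H09I01.2, C41C4.11 and T19B4.8.

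Members with a peak were found on every autosome. The counts were 7 of 38 members on chromosome I, 9 of 36 on II, 4 of 16 on III, 4 of 31 on IV and 3 of 19 on V. The 10 hosted genes on X had no peak either.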

How the data were processed

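ChIP-seq peak lists of 2 replicates were used, on ce11 and relative to control reads, per the deposited descriptions. Software for alignment and peak calling, and the IDR cutoff, is not given in the sources. Each deposited list holds a signal value per entry (a score from the authors' peak caller), a −log10 q value, at a shared ceiling for the deposited optimal peaks and not used, and the summit position. Genes came from Ensembl release 115 (WBcel235) and sequence from RefSeq WBcel235. Distances, ranks, windows and exact binomial intervals were computed with Python 3, numpy and scipy, and the code was tested on simulated data. There was 1 group, so no test between groups was made, and shares are set beside those of other genes.

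The members, lists and words were chosen with earlier results of these data known. Every member with a peak is named, the 12 strongest with the optimal signal value and the rank in each replicate. Also named are 3 members next below the limit, the 3 with the largest ratio of replicate ranks and 3 hosted genes. Members named for their boxes, ends or strand were chosen after their values were seen. Distance limits, peak sets, each replicate alone, member definitions and motif windows were varied.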

Additional observations from a re-analysis of the deposited data

How the results depend on the processing

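The count of 27 members with a peak was 17 with summits within 50 bp. It was 24 to 27 under the other alternatives tried (200 bp, interval overlap, a stricter set of the strongest optimal peaks, other member definitions, summits counted once), and 24 to 26 with 1 replicate left out and the strongest 371 entries of the other in its place. Without replicate 1 the list of replicate 2 gave the 24. The median summit offset of -42 bp was -41 bp at the nearest entries of replicate 1 and -47.5 bp at those of replicate 2. Allowing 1 mismatch, chosen after seeing the data like all box, length and T-run settings, raised the members with an A box from 15 to 25, those with a B box from 16 to 24 and those with both boxes in order from 11 to 21, which the looser match does by construction. Of the words, TTGCAA changed from 2 to 1 and TATAA from 5 to 1 within 60 bp, and TATAA to 8 within 150 bp. Members scored in the pooled list went from 59 to 40 within 50 bp and to 67 within 200 bp. The difference of 5.09 percentage points between members and hosted genes ranged from 4.89 to 6.53. No paired analysis was possible because there is 1 group. Depth is unknown, so the absence of a peak at a member says only that none passed the authors' threshold.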
